A study of Homo sapiens with 6 samples.

Results

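The set described here consists of 10 early response genes, IER2, IER3, IER5, PHLDA1, PHLDA2, PHLDA3, TRIB1, SGK1, CCNL1 and RHOB, out of 62252 genes to which the transcripts of 6 RNA-seq libraries were summed. The 10 were picked by gene symbol, and every transcript that GENCODE release 44 assigns to one of those symbols was counted for it. The libraries came from K562 cells, an erythroid leukemia line grown in suspension, kept overnight either with 10 µM 21H7, a cell-permeable iron chelator (Chelator, n = 3), or with an equal volume of the solvent DMSO (DMSO, n = 3). Poly(A) RNA was sequenced as paired ends, with 150 cycles, so each value is an average over a culture, and a change in every cell cannot be told apart from a change in the share of cells that carry the RNA. The comparison asked which RNAs differ after the cells spent a night with little available iron.

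Early response genes, also called immediate early genes, can be switched on by a growth factor or a stress without new protein having to be made first. Many have short gene bodies and short-lived mRNAs, with AU-rich elements in the 3′ untranslated region (UTR) that recruit decay factors, so that their level follows the signal closely. The members described here do not encode the classical transcription factors of that response but regulators around it. IER2, IER3 and IER5 are small proteins without known enzyme activity, of which IER3 acts on cell survival and IER5 works with the phosphatase PP2A and the heat shock factor HSF1. CCNL1 encodes cyclin L1, the partner of the kinase CDK11 in pre-mRNA splicing. PHLDA1, PHLDA2 and PHLDA3 share a pleckstrin homology-like domain, which in PHLDA2 and PHLDA3 binds membrane lipids. TRIB1 is a pseudokinase that brings the ubiquitin ligase COP1 to C/EBP-alpha, SGK1 is a kinase related to AKT, and RHOB is a small GTPase of endosomes.

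The libraries held 78.6 M (DMSO) to 101 M (Chelator) estimated counts, where M stands for 1000000. The median fragment length implied by the effective lengths was 252 to 264 bases in DMSO and 200 to 218 bases in Chelator, without overlap, so that this property of the libraries and the treatment cannot be told apart. The globin and erythroid markers that define K562 cells summed to 17242 to 18766 TPM (a level per transcript length, scaled to the same total in every library) in DMSO and to 24556 to 26004 TPM in Chelator, and none of the 11 was at 0. The list went both ways. By the adjusted p alone, under 0.05 in the test described below, 5 were higher and 2, KLF1 (log2 fold change -0.72) and TAL1 (-0.28), were lower. Of all genes, 19.5% were higher and 18.3% lower by that measure. The transferrin receptor gene TFRC, known to respond to iron, had between 227 and 290 TPM in DMSO and between 1814 and 2035 TPM in Chelator. Most markers of other blood cells and of fibroblasts were low, with CD68 and CD3D as exceptions. The 6 megakaryocyte markers summed to 4.46 to 5.10 TPM in DMSO and 7.58 to 9.21 TPM in Chelator, with PF4 at 0 throughout. The 6 fibroblast markers summed to 2.77 to 3.41 TPM in DMSO and 3.48 to 3.95 TPM in Chelator, and the 6 lymphocyte markers to 11.8 to 18.0 TPM in DMSO and 43.1 to 45.2 TPM in Chelator, nearly all of it CD3D, with MS4A1 at 0 throughout. The 6 macrophage and monocyte markers summed to 31.8 to 36.0 TPM in DMSO and 40.7 to 45.0 TPM in Chelator, nearly all of it CD68, with CD14 at no more than 0.20 TPM. The part of these shifts in the results below was not tested.

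Of the 10 members, 7 rose after iron chelation, none fell, and 3 did not pass the test. A gene was called when its Benjamini-Hochberg adjusted p from the DESeq2 Wald test was under 0.05 and its log2 fold change, Chelator over DMSO, was above 1 or below -1. In all, 8.18% of the 24542 genes given an adjusted p were called higher and 2.6% lower. The 7 were PHLDA1, RHOB, SGK1, PHLDA2, IER3, TRIB1 and IER5. IER2 and CCNL1 were also higher by the adjusted p alone, as were 19.5% of all genes, but by less than the fold threshold. PHLDA3 was close to undetected. In 9 of the 10 members, all but PHLDA3, every Chelator library was above every DMSO library, which held for 25.5% of all genes. The median log2 fold change of the 10 was 1.70, against 0.02 over all genes tested.

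**Figure D1:**
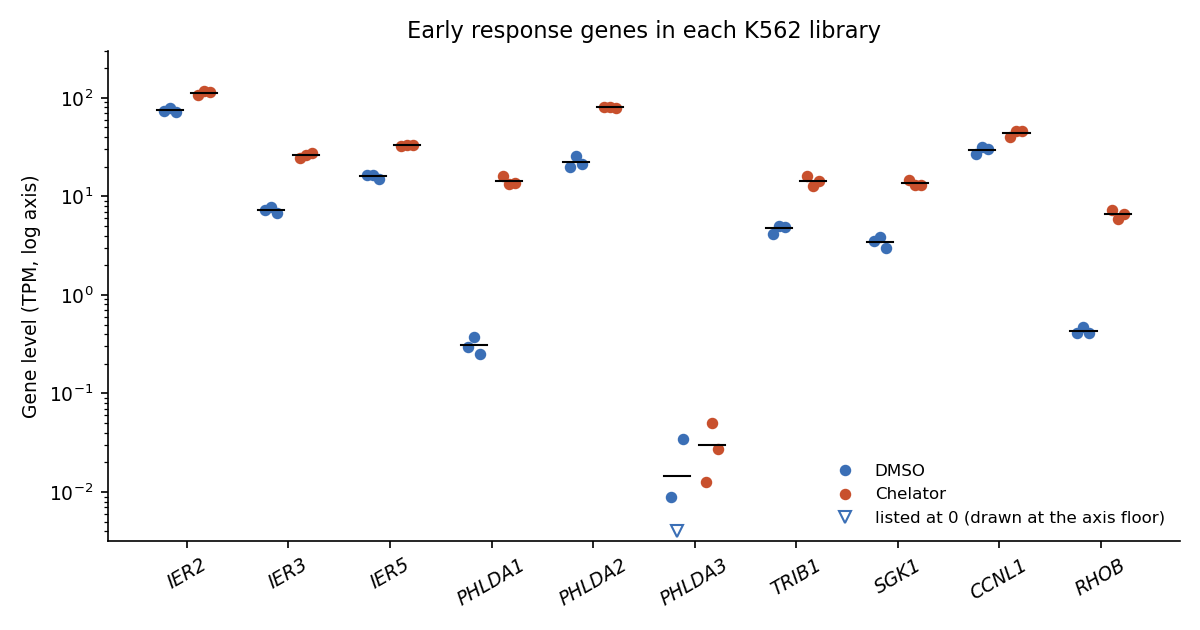
Level of each early response gene (TPM, log axis) in the 3 DMSO and 3 Chelator libraries, one point per library, with group means as black lines and a value of 0 drawn as an open triangle at the floor. The Chelator points lie above the DMSO points for 9 genes, from about 14 TPM against 0.31 TPM for PHLDA1 to 113 against 74.6 TPM for IER2, and mingle for PHLDA3 alone.

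Most of these genes have few exons, while their AU-rich content varied. In their canonical transcripts, IER5 and RHOB have 1 exon, IER2, IER3, PHLDA1, PHLDA2 and PHLDA3 have 2, and TRIB1 has 3. That puts 8 of 10 members at no more than 3 exons, against 14.9% of the 15675 protein-coding genes tested. CCNL1, with 11 exons, and SGK1, with 14, are the other two. The canonical SGK1 transcript had 0 estimated counts in all 6 libraries, so its structure and 3′ UTR describe the annotation and not the RNA counted here. The median total intron length was 1290 bases for the members and 22394 bases for all these genes. The 3′ UTR of 9 members, all but IER2, held the AU-rich pentamer ATTTA, as did 70.3% of genes, and the median density was 2.90 per kb for the members against 1.57 per kb. IER3 had the densest 3′ UTR, with 8.14 pentamers per kb, above 97.4% of genes. The longer AU-rich nonamer TTATTTATT, searched on the sense strand, stood in the 3′ UTR of IER5 and PHLDA1, against 9.12% of genes with any. IER5 had 3 overlapping copies in a continuous run, and PHLDA1 had 1. These are windows of 30 bases around the first copy in each, shown because they carry the AU-rich element that background knowledge ties to short-lived early response mRNAs. Only the first copy is in capitals, and the overlapping copies of IER5 run on from it in lower case. The IER5 window is chr1:181092442-181092471 on the plus strand and the PHLDA1 window is chr12:76029787-76029816 on the minus strand of GRCh38.
IER5 3′ UTR: ggtgtcttcctTTATTTATTtatttattta
PHLDA1 3′ UTR: ttgatttatgaTTATTTATTagtttttttt

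RefSeq promoter windows on GRCh38.p14 were at hand for 6 members, IER2, IER5, PHLDA1, SGK1, CCNL1 and RHOB, as 8 windows because SGK1 has 3 start sites. The 250 bases upstream of the start are printed for the pair of members with the largest fold changes, for the SGK1 start that matches its main protein-coding transcript, and for CCNL1, one of the pair that stayed under the fold threshold. In capitals are matches, on either strand, to the TATA box TATAAA, the cAMP response element TGACGTCA and the CCAAT box CCAAT. The windows are PHLDA1 at chr12:76031777-76032026 (minus strand), RHOB at chr2:20446824-20447073 (plus strand), SGK1 at chr6:134174867-134175116 (minus strand) and CCNL1 at chr3:157160148-157160397 (minus strand).
PHLDA1: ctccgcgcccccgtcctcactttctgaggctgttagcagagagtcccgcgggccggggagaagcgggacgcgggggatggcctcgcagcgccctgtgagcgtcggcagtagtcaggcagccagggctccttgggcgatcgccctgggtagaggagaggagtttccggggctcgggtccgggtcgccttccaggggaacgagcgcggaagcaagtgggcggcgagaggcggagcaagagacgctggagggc
RHOB: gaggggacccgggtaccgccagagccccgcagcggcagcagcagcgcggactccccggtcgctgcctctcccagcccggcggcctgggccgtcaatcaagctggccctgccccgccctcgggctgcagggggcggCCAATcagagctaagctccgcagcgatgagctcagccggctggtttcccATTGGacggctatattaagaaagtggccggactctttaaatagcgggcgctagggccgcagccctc
SGK1: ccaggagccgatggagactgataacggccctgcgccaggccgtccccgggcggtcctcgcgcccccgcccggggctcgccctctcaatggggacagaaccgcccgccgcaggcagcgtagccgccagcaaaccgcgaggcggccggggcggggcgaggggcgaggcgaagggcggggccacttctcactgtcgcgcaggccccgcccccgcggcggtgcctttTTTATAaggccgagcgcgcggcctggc
CCNL1: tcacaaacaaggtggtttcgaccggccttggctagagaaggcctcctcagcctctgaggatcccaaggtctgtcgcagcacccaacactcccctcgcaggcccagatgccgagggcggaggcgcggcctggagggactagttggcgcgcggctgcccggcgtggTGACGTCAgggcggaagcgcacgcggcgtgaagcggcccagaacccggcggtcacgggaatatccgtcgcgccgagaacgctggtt

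The windows held different motifs. The RHOB window holds a CCAAT box whose first letter is 115 bases before the start and another, on the opposite strand, 66 bases before it. The IER5 window has 2 as well, and 34.6% of the 35116 RefSeq windows of 300 bases have at least 1. SGK1 has a match to the TATA box letters 27 bases before this start, on the opposite strand. Its other windows hold 1 each. That match lies 96 bases before the most distal start, on the opposite strand, and 15 bases before the middle start, on the same strand. At least 1 match is found in 11.5% of windows. Of the 6 members searched, CCNL1 alone had a full cAMP response element, found in 1.85% of windows. The hypoxia response core ACGTG was found for IER2 and at the most distal SGK1 start, against 21.4% of windows. The GC box GGGCGG was in 5 of the 8 windows and in 45% of all. None of the 8 windows held the AP-1 site TGANTCA, present in 7.71% of windows, the EGR site GCGTGGGCG, in 0.795%, the CArG box, in 1.29%, or the NF-kappaB site, in 11.3%. A match, or none, describes these letters in these windows and nothing more.

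PHLDA1 showed the largest change of the set. The gene lies at chr12:76025447-76031776 on the minus strand. After normalization for library size and average transcript length, PHLDA1 had 120, 128 and 99.6 counts in DMSO and 6084, 4827 and 5069 in Chelator. Every Chelator library was far above every DMSO library. The log2 fold change was 5.52 (SE 0.14), or 45.8-fold, and the DESeq2 adjusted p was so small that it was returned as 0. In TPM, PHLDA1 went from 0.310 ± 0.063 to 14.4 ± 1.4 (SD, n = 3 each).

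PHLDA2 is an imprinted gene, expressed mainly from the maternal copy and known as a brake on placental growth. It lies at chr11:2928273-2929420 on the minus strand. In DMSO it had 1368, 1464 and 1424 normalized counts, and in Chelator 5245, 4952 and 4991 in Chelator. The groups were far apart relative to their spread, with a log2 fold change of 1.84 (SE 0.08), or 3.57-fold, and an adjusted p of 3.7e-118 in DESeq2. At 80.7 ± 0.9 TPM in Chelator, PHLDA2 was the second most abundant member, up from 22.3 ± 2.9 TPM. PHLDA3, known as a p53 target that competes with AKT for membrane lipids, had 2, 0 and 2 estimated counts in DMSO and 3, 13 and 6 in Chelator. These groups overlap, and the log2 fold change of 1.24 had a 95% interval from -1.79 to 4.28, so no difference was detectable at this depth (DESeq2 adjusted p = 0.588). K562 cells are known to lack functional p53, and whether this bears on the level of PHLDA3 was not tested. Within the trio, PHLDA1 made up 1.37% ± 0.16 of the summed TPM in DMSO and 15.1% ± 1.2 in Chelator, the rest being nearly all PHLDA2.

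RHOB, unlike its relatives RHOA and RHOC, is known for a short-lived mRNA and protein. It lies at chr2:20447074-20449440 on the plus strand. RHOB had 81.9, 78.2 and 79.6 normalized counts in DMSO and 1376, 1039 and 1203 in Chelator. The DMSO libraries were almost alike, and the Chelator libraries spread over a 1.32-fold range. The log2 fold change was 3.92 (SE 0.17), or 15.1-fold (DESeq2 adjusted p = 9.6e-114). RHOA, at 291 TPM in DMSO and 267 TPM in Chelator, had a log2 fold change of -0.15 that did not pass (adjusted p = 0.101), and RHOC had 0.38 (adjusted p = 3.6e-07), under the fold threshold. RHOB therefore remained the minor member of its family, at 0.0845% ± 0.0016 of the summed TPM of the trio in DMSO and 1.17% ± 0.10 in Chelator.

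SGK1 phosphorylates the ubiquitin ligase NEDD4L and the stress protein NDRG1. It lies at chr6:134169248-134318112 on the minus strand. SGK1 normalized counts were 329, 303 and 273 in DMSO and 1286, 1077 and 1116 in Chelator. The lowest Chelator library was more than 3 times the highest DMSO library. The log2 fold change was 1.94 (SE 0.14), or 3.84-fold (DESeq2 adjusted p = 1.4e-44). The other SGK kinases did not pass. SGK2 had 6 to 17 estimated counts a library and a log2 fold change of -0.45 (adjusted p = 0.732), and SGK3 had 0.10 (adjusted p = 0.785), a value that turned negative without the transcript-length offset (-0.46) and under other settings. The share of SGK1 in the summed TPM of the 3 kinases was 67.6% ± 3.9 in DMSO and 88.2% ± 3.0 in Chelator.

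TRIB1, on chromosome 8, had normalized counts of 1102, 1122 and 1279 in DMSO and 3995, 2996 and 3482 in Chelator. The Chelator libraries differed among themselves by 1.33-fold, the widest spread among the called members, and still lay well above DMSO. The log2 fold change was 1.58 (SE 0.12), or 2.99-fold (DESeq2 adjusted p = 2.9e-39). TRIB3, a relative that binds AKT and is induced by the transcription factor ATF4, came close to the threshold at 0.95 (adjusted p = 1.7e-38), and TRIB2 had 0.26 (adjusted p = 0.0095). TRIB3 was the most abundant of the trio in both groups, at 64.6% and 69.9% of its TPM, while TRIB1 went from 6.49% ± 0.66 to 10.8% ± 1.0.

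IER3 lies at chr6:30743199-30744548 on the minus strand. IER3 normalized counts were 656, 595 and 600 in DMSO and 2101, 2132 and 2298 in Chelator. Each group was tight and the groups were well separated, with a log2 fold change of 1.82 (SE 0.10), or 3.53-fold (DESeq2 adjusted p = 6.8e-71). The antisense genes IER3-AS1 and HCG20 overlap IER3, and 34.5% of the 31-base words in its transcripts occur in them too, read on either strand. IER3-AS1 had 54.0 to 98.1 normalized counts in DMSO and 66.4 to 123 in Chelator and did not pass (adjusted p = 0.385). Whether the libraries kept strand information is not given in the sources used here. The split of reads between a gene and its antisense partner is therefore uncertain in the stretches they share.

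IER5 lies at chr1:181088700-181092900 on the plus strand. Its normalized counts were 5503, 4696 and 4957 in DMSO and 10288, 10040 and 10209 in Chelator. The log2 fold change of 1.01 (SE 0.08), or 2.01-fold, sat on the threshold (DESeq2 adjusted p = 8.9e-36). The call was lost without DMSO replicate 2 (0.96), without DMSO replicate 3 (0.99), and after centering on the mean change of all genes (0.85), each time on the fold threshold with the adjusted p still under 0.05, and when tested against a log2 fold change of 1 (adjusted p = 1.0). Its paralog IER5L rose by a log2 fold change of 1.43 (SE 0.16, adjusted p = 4.4e-17) from a lower level, 1.14 against 16.0 TPM in DMSO, and lost its call when tested against a log2 fold change of 1 (adjusted p = 0.254).

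IER2 lies at chr19:13150411-13154911 on the plus strand and was the most abundant member in both groups. Its normalized counts were 15562, 14099 and 14939 in DMSO and 21549, 22371 and 22296 in Chelator. The groups did not overlap, but the log2 fold change of 0.57 (SE 0.07), or 1.48-fold, was under the threshold (DESeq2 adjusted p = 4.3e-16). CCNL1, at chr3:157146508-157160760 on the minus strand, was alike, with normalized counts of 3051, 3029 and 3371 in DMSO and 4303, 4665 and 4793 in Chelator. Its log2 fold change was 0.54 (SE 0.08), or 1.46-fold (adjusted p = 1.0e-09). Summed over its protein-coding transcripts alone, an alternative added after seeing the data, the CCNL1 value was 0.99. Its paralog CCNL2, also a partner of CDK11, had 0.48 (adjusted p = 2.6e-05), so that CCNL1 kept 33.1% ± 1.3 of their summed TPM in DMSO and 34.2% ± 2.2 in Chelator.

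**Figure D2:**
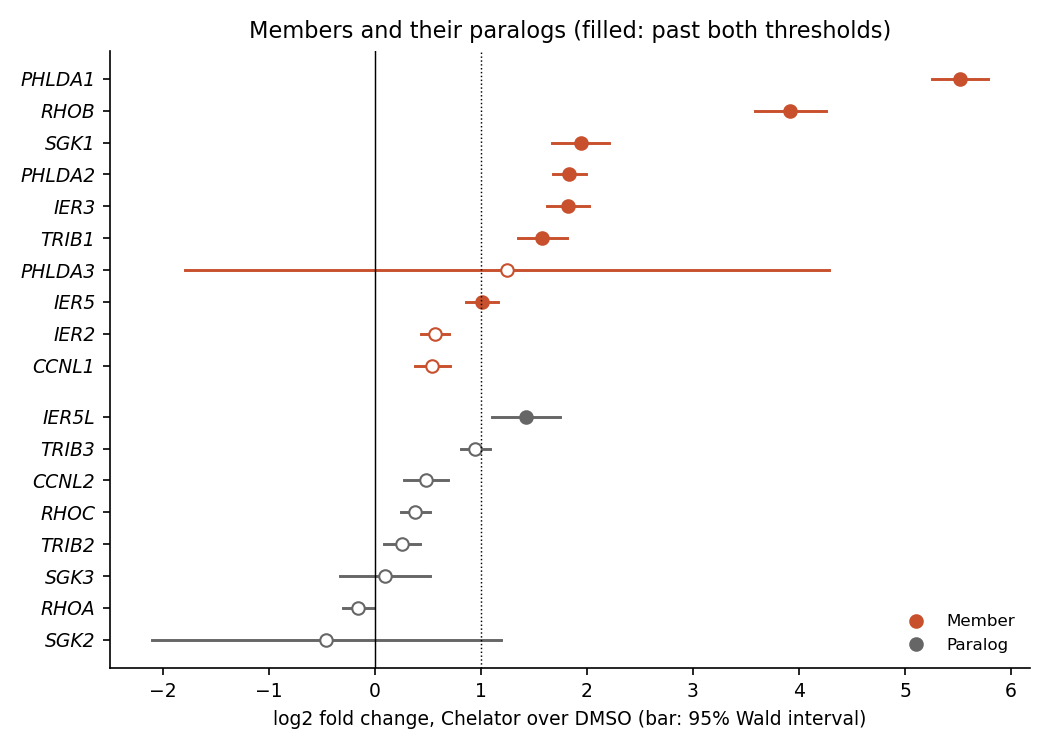
log2 fold change, Chelator over DMSO, of the 10 members (orange) and of 8 paralogs (gray), with 95% Wald intervals as bars, lines at 0 and at the threshold of 1, and filled points for genes past both thresholds. PHLDA1 and RHOB stand far right at 5.52 and 3.92, IER5 sits on the threshold at 1.01, the PHLDA3 interval crosses 0, and IER5L is the one filled paralog.

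The order of the members by level changed with the treatment. In DMSO, mean TPM ran from IER2 (74.6) through CCNL1 (29.7), PHLDA2 (22.3), IER5 (16.0), IER3 (7.22), TRIB1 (4.72), SGK1 (3.48), RHOB (0.430) and PHLDA1 (0.310) to PHLDA3 (0.014). The ranges of neighbors in that order did not overlap. In Chelator, PHLDA2 passed CCNL1, with 80.7 against 44.2 TPM, and PHLDA1 moved up beside TRIB1 and SGK1. These last members, at 14.4, 14.4 and 13.6 TPM, were neighbors whose ranges overlapped, so their order is not resolved. RHOB followed at 6.60 TPM and PHLDA3 remained last at 0.030 TPM.

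Gene sums can hide a change of transcript, so the share of each transcript in the gene was tested as well, for the 6 members with at least 2 transcripts counted well enough. In an edgeR test of differential transcript usage, 2 of the 6 passed, IER2 and SGK1, where 9.22% of the 11938 genes tested did. That background of 1101 genes is itself unstable, at 539 without Chelator replicate 3, 592 without Chelator replicate 2 and 3184 in limma. IER2 has a spliced transcript (ENST00000292433.4) and an intron-containing one (ENST00000588173.1), which has 1 exon and starts 1564 bases downstream, inside the intron, 969 bases of which it contains. The spliced transcript had 7490, 6763 and 6515 estimated counts in DMSO and 14966, 18259 and 15187 in Chelator. The intron-containing transcript had 7865, 6792 and 6712 in DMSO and 7189, 8093 and 6545 in Chelator. The former was thus higher in every Chelator library and the latter was not. In TPM, the spliced transcript went from 43.0 ± 2.6 to 85.0 ± 5.0 and the intron-containing one from 31.5 ± 1.2 to 27.6 ± 0.8, so that the latter fell from 42.3% ± 0.6 to 24.4% ± 1.0 of the gene (edgeR adjusted p = 0.0073 for IER2, and 0.0015 to 0.046 with each library left out). An antisense gene, ENSG00000267598, shares 28.9% of the 31-base words of IER2, and had 0 estimated counts in DMSO and 17, 31.1 and 20.7 in Chelator, at least 6.79-fold higher against a floor of 3 counts in each DMSO library and still a small number beside IER2.

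The SGK1 usage call rests on few reads. Its p came from 1 protein-coding transcript (ENST00000367857.9, adjusted p = 0.0039 against the gene), which had 0 estimated counts in every DMSO library and 71.8, 86.7 and 23.2 in Chelator, a change of 2.55 percentage points of the gene TPM. The share change that met the minimum of 5 points, -5.93, belonged to another transcript, with 12 exons (ENST00000237305.11), that did not pass by itself (adjusted p = 1.0, rounded). The call was lost without any one of Chelator replicates 1, 2 or 3 (adjusted p of 1.0 each, rounded), in limma (0.160), and when 30 counts were required (1.0). The main SGK1 transcripts were that protein-coding one with 12 exons, at 37.3% ± 1.2 of the TPM in DMSO and 31.4% ± 6.0 in Chelator, and a short one of 573 bases, annotated as a retained intron, at 53.3% ± 5.8 and 56.6% ± 7.5. The short transcript had 34.4 to 46.5 estimated counts in DMSO and 189 to 274 in Chelator, fewer than the 153 to 221 and 605 to 806 of the protein-coding one, since TPM is per length.

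CCNL1 was represented mostly by transcripts annotated as retaining an intron. They made up 75.6%, 75.4% and 77.5% of its TPM in DMSO and 75.1%, 71.1% and 68.3% in Chelator. The protein-coding transcripts made up 12.8%, 11.8% and 11.2% in DMSO and 14.5%, 15.3% and 16.9% in Chelator. The retained-intron share was lower and the protein-coding share higher in each Chelator library. In TPM both were higher in Chelator. The retained-intron transcripts went from 22.6 ± 1.9 to 31.5 ± 1.3 TPM and the protein-coding ones from 3.53 ± 0.18 to 6.91 ± 0.99 TPM. With 18 transcripts tested, CCNL1 did not pass the usage test in edgeR (adjusted p = 1.0, rounded) and did in limma (adjusted p = 0.013). The transcripts of PHLDA1, with 2 exons each, could not be ordered in DMSO, where their shares moved between libraries with few reads, and stood at 49.3% ± 4.6 and 50.7% ± 4.6 in Chelator. IER3 and TRIB1 did not pass (adjusted p = 1.0, rounded, each), and IER5, PHLDA2 and RHOB have 1 transcript.

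**Figure D3:**
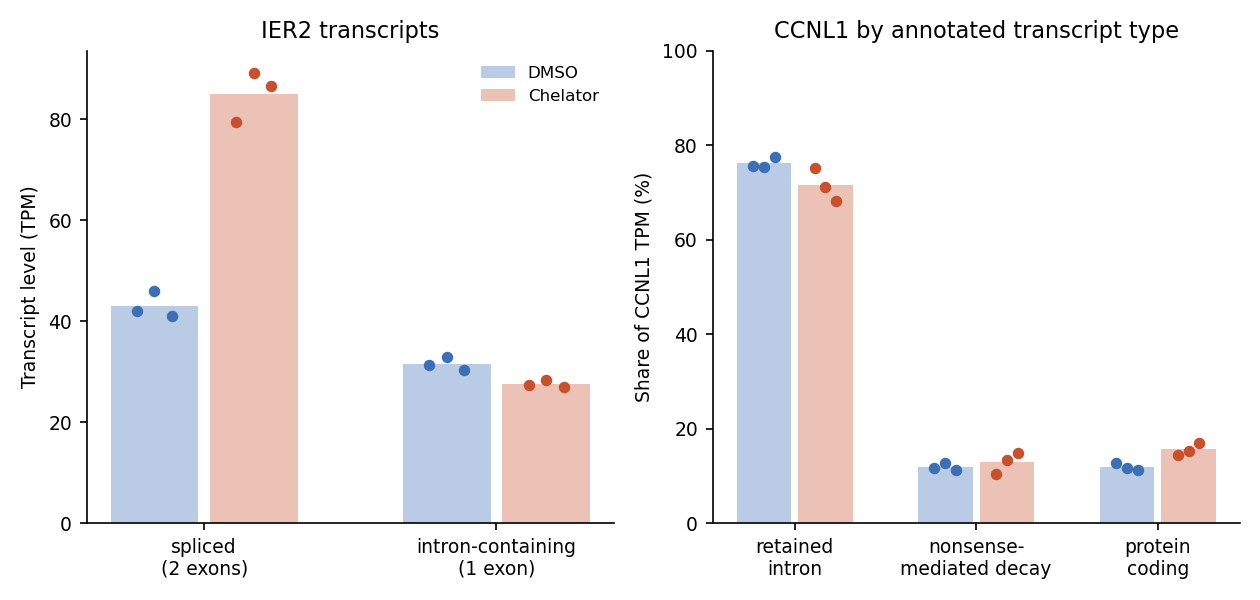
Left, level (TPM) of the IER2 transcripts in each library; right, share of CCNL1 TPM (%) by annotated transcript type. Bars are group means of 3 libraries and points are libraries. The spliced IER2 transcript stands at 43.0 TPM in DMSO and 85.0 TPM in Chelator, the intron-containing one at 31.5 and 27.6 TPM, and retained-intron transcripts hold most of CCNL1 in both groups.

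Other genes known as immediate early genes were examined as a list of 69 that did not include the members. All libraries followed a night of treatment, so whether these genes or the members rose early or directly was not tested. Of the 64 tested, 32 rose and none fell, with a median log2 fold change of 1.36, or 1.31 with the 2 genes at 0 in every DMSO library set to their bound. Over all genes, as given above, 8.18% rose and 2.6% fell. The 4 most abundant of those called were EGR1, a zinc finger transcription factor, at 3.30, BHLHE40, a transcriptional repressor, at 2.48, ZFP36L1, which binds AU-rich elements and speeds mRNA decay, at 1.83, and PPP1R15A, which restores translation after stress, at 1.73. EGR1 normalized counts were 3277 to 3943 in DMSO and 34424 to 37442 in Chelator. Not all of the list moved that way. By the adjusted p alone, which put 19.5% of all genes higher and 18.3% lower, 47 were higher and 4 lower, the latter including MYC at -0.28 and ID1 at -0.56, and SRF, a transcription factor that drives many of these genes, had 0.07 (DESeq2 adjusted p = 0.52). MYC, ID1 and SRF were named after their values were seen.

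Lists of genes tied to single signals had lower medians than the members. Their counts stand against 8.18% of all genes that rose and, by the adjusted p alone, 19.5% higher and 18.3% lower. Of 17 output genes of the ERK pathway, 3 rose and none fell, or 17.6%, with a median of 0.41. By the adjusted p alone, 6 were higher and 3 lower. The 3 that rose were CCND1, or cyclin D1, at 1.61, DUSP5, a phosphatase that inactivates ERK, at 2.23, and the receptor EPHA2 at 1.71. EPHA2 was scarce, at 0.090 TPM in DMSO and 0.298 TPM in Chelator. SPRY2, also named after its value was seen, stood at 0.00. Of 24 NF-kappaB target genes tested, 8 rose and none fell, with a median of 0.83, or 0.60 with the 1 gene at 0 in every DMSO library set to its bound, and by the adjusted p alone 14 were higher and 4 lower. Those that rose include NFKB2, a subunit of the factor itself, at 1.33 and the cytokines CXCL3 at 2.20, CXCL8 at 3.31 and IL6 at 2.43. These cytokines were scarce in DMSO, at 1.08, 0.54 and 0.62 TPM in that order. The lower ones, named after their values were seen, were CD83 at -0.98, NFKB1 at -0.67, SOD2 at -0.45 and TNFAIP2 at -0.27. Of 24 p53 target genes tested, 7 rose and 1, ZMAT3, named after its value was seen, fell, with a median of 0.22. By the adjusted p alone, 13 were higher and 5 lower. The most abundant called were SESN2 at 1.70, GDF15 at 3.58, BTG2 at 2.99 and CDKN1A, a cell cycle inhibitor, at 3.51. Each is known to respond to other stress signals too, and which signal raised them was not tested. Of 12 glucocorticoid-induced genes, a list that matters here because SGK1 was first known for its induction by serum and glucocorticoids, 3 rose and none fell, with a median of 0.22, and by the adjusted p alone 5 were higher and 2 lower. They were DDIT4, an inhibitor of mTORC1, at 2.32, ERRFI1, an inhibitor of the EGF receptor, at 2.02, and TSC22D3 at 3.81. FKBP5, a classical glucocorticoid target named after its value was seen, had -0.15 and did not pass (adjusted p = 0.079). Some genes stand in more than one of these lists, so the counts are not independent of each other.

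Of 17 partners and regulators of the members, 1 rose and none fell, with a median of -0.03. That is 5.88% of the list, near the 8.18% of all genes. By the adjusted p alone, 4 were higher and 2 lower. The one was NDRG1, a substrate of SGK1 and a gene known to respond to hypoxia and iron loss, with normalized counts of 136, 181 and 174 in DMSO and 4604, 2979 and 3437 in Chelator and a log2 fold change of 4.49 (SE 0.17). Named after their values were seen, CDK11A and CDK11B, the partners of cyclin L1, had 0.38 and 0.26, HSF1 had -0.07, NEDD4L 0.27 and COP1 -0.23, all under the fold threshold.

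**Figure D4:**
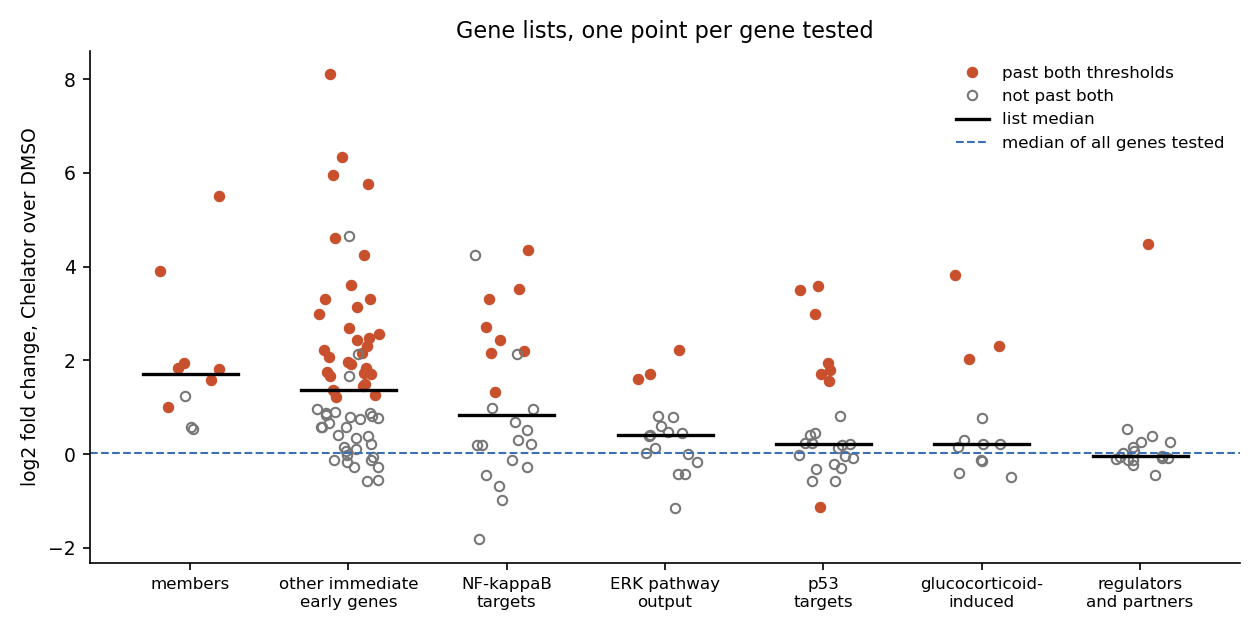
log2 fold change, Chelator over DMSO, of every tested gene in the 10-member set and in 6 other lists, one point per gene, filled where past both thresholds, with list medians as black bars and the median of all genes as a dashed line. The members (median 1.70) and the other immediate early genes (1.36) stand highest, and the regulators and partners (-0.03) have 1 filled point, NDRG1.

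The genes whose pattern over the 6 libraries was most like that of each called member were found by the smallest root mean square difference in log2 normalized count, centered on the DMSO mean, among protein-coding genes with a mean of at least 500. For PHLDA1 they were PDGFB, SH3TC1 and PTPRN, at differences of 0.16, 0.20 and 0.21. For RHOB they were ABCB1, SP6 and TUBA1A, at 0.14, 0.19 and 0.22. The moderate members had closer matches, at 0.038 to 0.047 for IER3 (CALB1, PPARD and TNFRSF10B), 0.036 to 0.050 for IER5 (RAC2, TM7SF2 and ERG28), 0.060 to 0.092 for PHLDA2 (IGFBP4, PPARD and BNIP3L), 0.076 to 0.090 for TRIB1 (CCND1, TPM4 and KRT8) and 0.048 to 0.081 for SGK1 (ALDH1L2, ARG2 and TUBB3). PPARD, a nuclear receptor, was among the matches of both IER3 and PHLDA2. These are descriptions over 6 libraries that differ mainly by group.

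Within 100 kb of a member, 31 genes averaged 50 or more normalized counts, of which 5 rose and none fell, with a median log2 fold change of 0.15. Of all genes at that level, 8.02% rose. PHLDA1-AS1 and RPS10P7 reached that level only through the Chelator libraries. With the minimum set on the DMSO mean, a setting added after seeing the data, 3 of 29 rose and none fell, against 5.61% of all genes. SLC22A18, 3.03 kb from PHLDA2 and, like it, an imprinted gene, had normalized counts of 175, 225 and 157 in DMSO and 559, 677 and 730 in Chelator. Its log2 fold change of 1.82 (SE 0.18) was close to that of PHLDA2, and CDKN1C, an imprinted cell cycle inhibitor 42.5 kb away, had 0.79 (SE 0.10), under the threshold. MR1, which presents small metabolites to T cells and lies 26.8 kb from IER5, had 1.22 (SE 0.11). VEPH1, 99.0 kb from CCNL1, had 1.68 (SE 0.27), and the pseudogene RPS10P7, 49.5 kb from PHLDA3, had 1.46 (SE 0.41).

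The fifth was PHLDA1-AS1, a noncoding gene that overlaps PHLDA1 on the other strand. It had 0 estimated counts in every DMSO library and 266, 241 and 186 in Chelator, at least 68.4-fold higher against a floor of 3 counts in each DMSO library. PHLDA1 itself had 6546, 5632 and 4794 counts in the same Chelator libraries. Of the 31-base words of PHLDA1, 11.5% occur in transcripts of other genes, the antisense gene included, so the split of reads between the overlapping genes is uncertain.

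**Figure D5:**
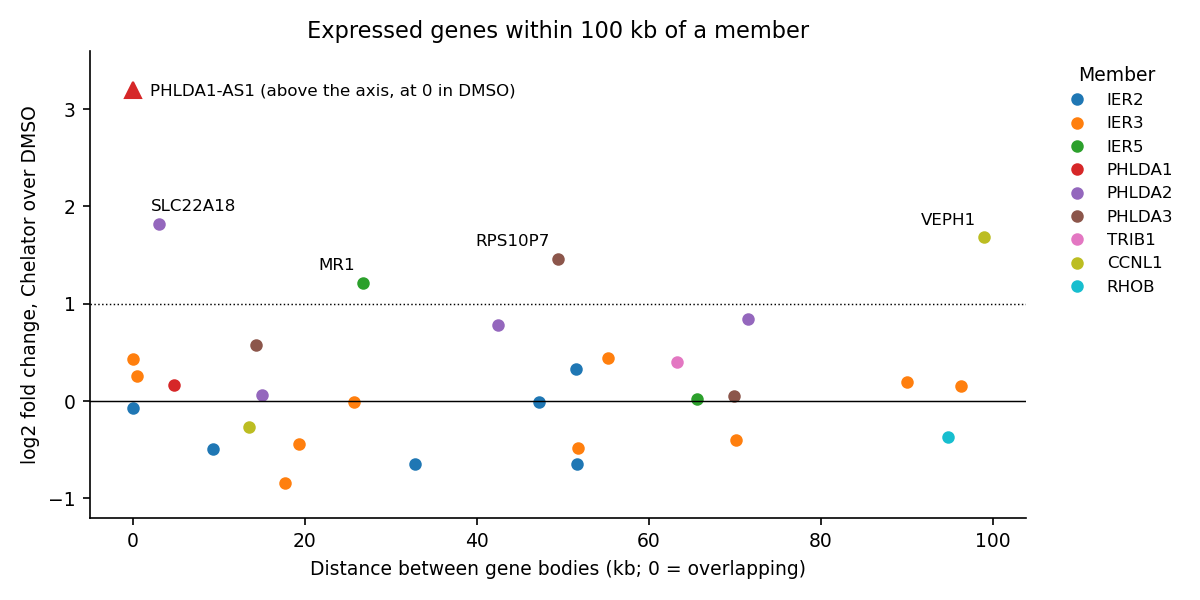
log2 fold change, Chelator over DMSO, of the 31 expressed genes within 100 kb of a member against the distance between gene bodies (kb, 0 for overlapping genes), colored by member, with a line at 0 and a dotted line at 1. The 5 labeled genes passed both thresholds, with PHLDA1-AS1 drawn as a triangle above the scale because it was at 0 in DMSO, and the other 26 lie between -0.84 and 0.84.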

How the data were processed

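The authors quantified transcripts with salmon 1.10.2 and deposited, for each of the 6 libraries, estimated counts, TPM, lengths and effective lengths per transcript. The transcript annotation and genome build behind that step, and any strand setting, are not given in the sources used here. Of 252045 transcripts, 251142 matched GENCODE release 44 in version and length and 470 matched with another version or length. The other 433 did not match and were left out, with 0.139 to 0.150% of the estimated counts. Estimated counts were summed per gene, rounded, and tested with the DESeq2 1.42.0 Wald test in R 4.3.3 on all 6 libraries with group as the only term, median-ratio size factors and the average transcript length as an offset, for 26074 genes with over 10 counts in total, of which 24542 received an adjusted p. Normalized counts are counts divided by these factors, the length offset included. Transcript usage was tested with edgeR 4.0.16 (diffSpliceDGE on a robust quasi-likelihood fit, Simes p per gene) on transcripts reaching 10 counts in 3 or more libraries, and called at an adjusted p under 0.05 with a share of the gene TPM moving by over 5 percentage points. Intervals and floors cover counting error or the spread between libraries only. The deposited series calls the libraries biological replicates. Deviations of same-numbered libraries from their group means correlated at -0.075, 0.13 and 0.10. Those of libraries with different numbers correlated at -0.16 to 0.082. Not every same-numbered pair deviated together, and the numbers were not used as pairs.

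Genes were named by rule: all members and 8 paralogs; of each other list the 4 called genes with the highest mean normalized count; the 3 nearest patterns of each called member; genes within 100 kb of a member with a mean of at least 50; and member transcripts with at least 5% of the gene TPM in either group. Named outside these rules were single marker genes, antisense genes that overlap a member, and the SGK1 transcript that gave its usage p. Other exceptions are marked where they occur. The members, lists and rules were chosen with earlier results of these data known, and give no independent support to any pattern. Alternatives were edgeR's quasi-likelihood test, TMM factors, no length offset, other filters on low counts, centering, a test against the fold threshold, limma 3.58.1 for usage, a replicate block and leaving out each library. Summing only protein-coding transcripts and a likelihood ratio test of usage were added after seeing the data.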

Additional observations from a re-analysis of the deposited data

How the results depend on the processing

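Of the 7 members called higher, PHLDA1, RHOB, SGK1, PHLDA2, IER3 and TRIB1 were called under every alternative run, and 6 or 7 members were called in each. IER5 lost its call when centered, when tested against a log2 fold change of 1, and without DMSO replicate 2 or 3. Over all genes, 2646 were called (2007 higher, 639 lower), 674 when tested against a log2 fold change of 1 (615 and 59), 2694 when centered on the mean change of 0.157 (1644 and 1050), and 2207 to 2607 with each library left out. A replicate block gave 2345 calls over all genes, 7 members, and 923 genes and 2 members for transcript usage, and changed no call of a member; since the numbers share no stated source, it is given only as a setting. SGK3, which did not pass the test, reversed without the length offset (-0.46), when centered (-0.060), with protein-coding transcripts alone (-0.27), and without DMSO replicate 3 (-0.0066) or Chelator replicate 3 (-0.043), with 0.27 at the other end of the leave-one-out range; the cause was not tested. TRIB3 passed the threshold with protein-coding transcripts alone (1.00). For transcript usage, 1101 genes were called, 2270 by a likelihood ratio test, 3184 by limma, and 539 to 1063 with each library left out, lowest without Chelator replicate 3 (539) and replicate 2 (592). Of the members 2 were called, and 1 with at least 30 counts or without any one Chelator library (range 1 to 2 with each library left out), where SGK1 was lost. The p-values set the difference between groups against a variance estimated from only 3 libraries a group. PHLDA3 was limited by its depth, and shares of transcripts by the estimation of overlapping transcripts.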
